A study of Rattus norvegicus with 9 samples.

Results

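The RGS (regulators of G protein signalling) genes followed here across RNA-seq libraries of CD4+ T cells from rat blood were Rgs1, Rgs2, Rgs3, Rgs10, Rgs14, Rgs16, Rgs18 and Rgs19. The 8 genes were chosen by symbol with earlier results of these data known. Each comprised its named transcripts together with the assembled transcripts of its locus. They were 8 of 36858 gene units in the tables. The combination group held 3 libraries from CIA rats that had received several compounds together over 4 weeks, the model group 3 libraries from CIA rats, and the normal group 3 libraries from normal rats. All rats were of the SD (Sprague-Dawley) strain and 8-10 weeks old by the labels. CIA was read as collagen-induced arthritis because the study concerned rheumatoid arthritis, and the compounds are not named in the sources used here. The way in which CD4+ cells were isolated is not given there either. The labels do not say whether the 3 libraries of a group came from separate rats, so p-values measure the spread between libraries, which may be partly technical.

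G protein-coupled receptors act through a G protein alpha subunit that is active while it holds GTP. RGS proteins speed up the hydrolysis of that GTP, so they shorten the signal that follows each activation of the receptor. In T cells the chemokine receptors and the sphingosine 1-phosphate receptor couple mainly to Gi proteins, and RGS proteins are known there for limiting migration towards chemokines. Rgs1, Rgs2, Rgs3, Rgs16 and Rgs18 belong to the largest subfamily, whose proteins act on Gi, on Gq or on both. Rgs10 and Rgs14 form part of another subfamily, which acts on Gi, and Rgs19, first named GAIP, belongs to a separate one.

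The tables listed TPM (a transcript level scaled by transcript length and by the total of the library) for each transcript in each library. Aligned depth was 7.52 to 10.1 gigabases per library. The combination libraries were processed under file names of another style than those of the other groups, per the file headers. T cell marker genes summed to 3695 to 4639 TPM in combination, 4179 to 4555 TPM in model and 4430 to 5634 TPM in normal libraries, and 0 of these 14 genes were at 0 throughout a group. Among them, Cd4 averaged 120.5 TPM in combination, 120.7 TPM in model and 222 TPM in normal libraries, which lay above all others. Its adjusted p by limma was 0.0779 for model over normal and 0.0991 for combination over normal. Of the 14 genes, 11 had a negative log2 fold change in model over normal and 3 a positive one, against 8 and 6 in combination over normal. Model replicate 2 stood apart from the other model libraries. On the first principal component, which held 27.65% of the variance, it lay at 0.259, against 39.3 and 57.4 for model replicates 1 and 3, -3.85 to 8.10 for the combination and -40.4 to -30.9 for the normal libraries. Results that rest on the model group are therefore also given without it. It was singled out from these same data as the model library nearest the other groups, so calls gained without it are no separate support. Its omission moved the genes called for model over normal from 707 to 2813. On the second component (22.15%) model replicate 2 lay at 26.6, beside 11.6 and 27.97 for the other model libraries. The combination libraries stood apart there, at -42.4 to -33.6 against 11.3 to 27.97 for all model and normal libraries. Erythroid marker genes summed to 262 to 866 TPM in combination, 2409 to 16215 TPM in model and 61.3 to 1124 TPM in normal libraries, and 1 of these 10 genes was at 0 throughout the normal group.

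Of the 8 genes, 4 lie on chromosome 13. On the rn6 assembly Rgs2 occupied chr13:60845536-60849094, Rgs1 chr13:61066153-61070599 and Rgs18 chr13:61565483-61591139, all on the minus strand, and Rgs16 lay at chr13:71179910-71185216 on the plus strand. Rgs2 and Rgs1 were 217 kb apart, Rgs1 and Rgs18 495 kb, and Rgs16 began 9.59 Mb beyond Rgs18. The block from Rgs2 to Rgs18 spanned 746 kb and held 8 listed gene units. Of the 5 that are not among the genes studied here, 1 averaged at least 1 TPM, AABR07021220.1, at 15.9 to 23.3 TPM in the 9 libraries. Rgs13, a further family gene between Rgs2 and Rgs1, was listed at 0 in 8 of the 9 libraries. The other members lay elsewhere: Rgs10 at chr1:199782078-199823386 on the minus strand, Rgs19 at chr3:177196687-177201995 on the minus strand, Rgs3 at chr5:78428669-78567463 on the plus strand and Rgs14 at chr17:9777842-9792007 on the minus strand.

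The promoters of the 4 genes on chromosome 13 are shown because 3 of these genes changed and all of them share a subfamily and a chromosome. They are RefSeq sequences of the GRCr8 assembly, 250 bases before and 50 bases after the annotated start, at chr13:58573138-58573437 (Rgs1), chr13:58352617-58352916 (Rgs2), chr13:59066293-59066592 (Rgs18), all on the minus strand, and chr13:68437870-68438169 on the plus strand (Rgs16). Capitals mark matches to a searched motif.
Rgs1: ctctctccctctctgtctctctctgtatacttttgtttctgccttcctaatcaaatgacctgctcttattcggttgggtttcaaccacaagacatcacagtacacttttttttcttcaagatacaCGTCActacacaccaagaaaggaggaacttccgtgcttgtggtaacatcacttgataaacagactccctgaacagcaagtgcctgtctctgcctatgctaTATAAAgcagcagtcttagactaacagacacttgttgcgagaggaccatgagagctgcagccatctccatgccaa
Rgs2: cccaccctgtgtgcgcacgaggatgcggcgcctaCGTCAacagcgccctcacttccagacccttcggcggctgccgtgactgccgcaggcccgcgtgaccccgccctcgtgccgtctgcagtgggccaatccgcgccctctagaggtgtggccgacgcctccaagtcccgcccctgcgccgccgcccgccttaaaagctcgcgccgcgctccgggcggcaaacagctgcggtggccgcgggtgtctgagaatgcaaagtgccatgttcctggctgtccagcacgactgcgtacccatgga
Rgs16: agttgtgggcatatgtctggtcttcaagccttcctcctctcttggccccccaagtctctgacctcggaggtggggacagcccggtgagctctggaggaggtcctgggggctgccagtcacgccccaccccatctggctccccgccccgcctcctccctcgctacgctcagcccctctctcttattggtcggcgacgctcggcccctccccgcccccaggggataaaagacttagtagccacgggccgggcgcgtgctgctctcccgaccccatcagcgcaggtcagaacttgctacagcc
Rgs18: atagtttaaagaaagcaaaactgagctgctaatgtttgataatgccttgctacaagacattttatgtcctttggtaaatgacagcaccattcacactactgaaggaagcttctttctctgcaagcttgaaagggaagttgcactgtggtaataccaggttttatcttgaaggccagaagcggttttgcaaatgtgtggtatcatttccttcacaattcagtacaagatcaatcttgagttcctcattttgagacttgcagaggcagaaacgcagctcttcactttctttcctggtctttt
Motifs were searched on both strands: TGACGTCA (the cAMP response element, CRE), TGACG (its core, contained in the full CRE), TATAAA (the TATA box), TTCNNNGAA (STAT), CCGGAAG (ETS), and the NF-kB, AP-1 and CArG motifs by name. The Rgs1 promoter held TATAAA at positions -25 to -20 from the start and the CRE core, as CGTCA, at -125 to -121. The Rgs2 promoter held CGTCA at -216 to -212, and the Rgs16 and Rgs18 windows held no match. Among all 33469 promoters of the table, 21.2% held the CRE core and 14.2% TATAAA, so these matches are common. The GC content was 44.7% for Rgs1, 69.7% for Rgs2, 66.3% for Rgs16 and 39.7% for Rgs18. The promoters of the other members, each matched in the same table, held the CRE core and TATAAA in Rgs3, an NF-kB match in Rgs14 (7.51% of all promoters), an ETS match in Rgs19 (8.75%) and no match in Rgs10.

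Rgs1 was the most abundant member in every group, and the order of the others was similar in the 3 groups. In combination libraries the mean levels ran from 924 TPM for Rgs1, 360.2 TPM for Rgs10, 139 TPM for Rgs2, 43.6 TPM for Rgs19 and 27.5 TPM for Rgs14 down to 3.08 TPM for Rgs3, 1.96 TPM for Rgs18 and 1.64 TPM for Rgs16. Only the library ranges of Rgs18 and Rgs16 overlapped among neighbours in that order. In model libraries Rgs16, at 18.5 TPM, stood between Rgs14 (33.0 TPM) and Rgs3 (7.93 TPM), and Rgs18 was lowest at 0.435 TPM. There, the ranges overlapped between Rgs2 and Rgs10, Rgs19 and Rgs14, Rgs14 and Rgs16, and Rgs16 and Rgs3. In normal libraries Rgs14 (61.6 TPM) and Rgs19 (55.7 TPM) overlapped, as did Rgs16 (1.38 TPM) and Rgs18 (1.16 TPM). Summed over the 8 genes the level was 1376 to 1735 TPM in combination, 1589 to 2317 TPM in model and 1116 to 1258 TPM in normal libraries. Rgs1 alone supplied 52.0% to 66.8% of that sum. Of 11 further RGS genes in the tables, 0 averaged 1 TPM and 8 averaged under 0.1 TPM, the highest being Rgs9 (0.881 TPM), Rgs5 (0.511 TPM) and Rgs12 (0.468 TPM).

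**Figure D1:**
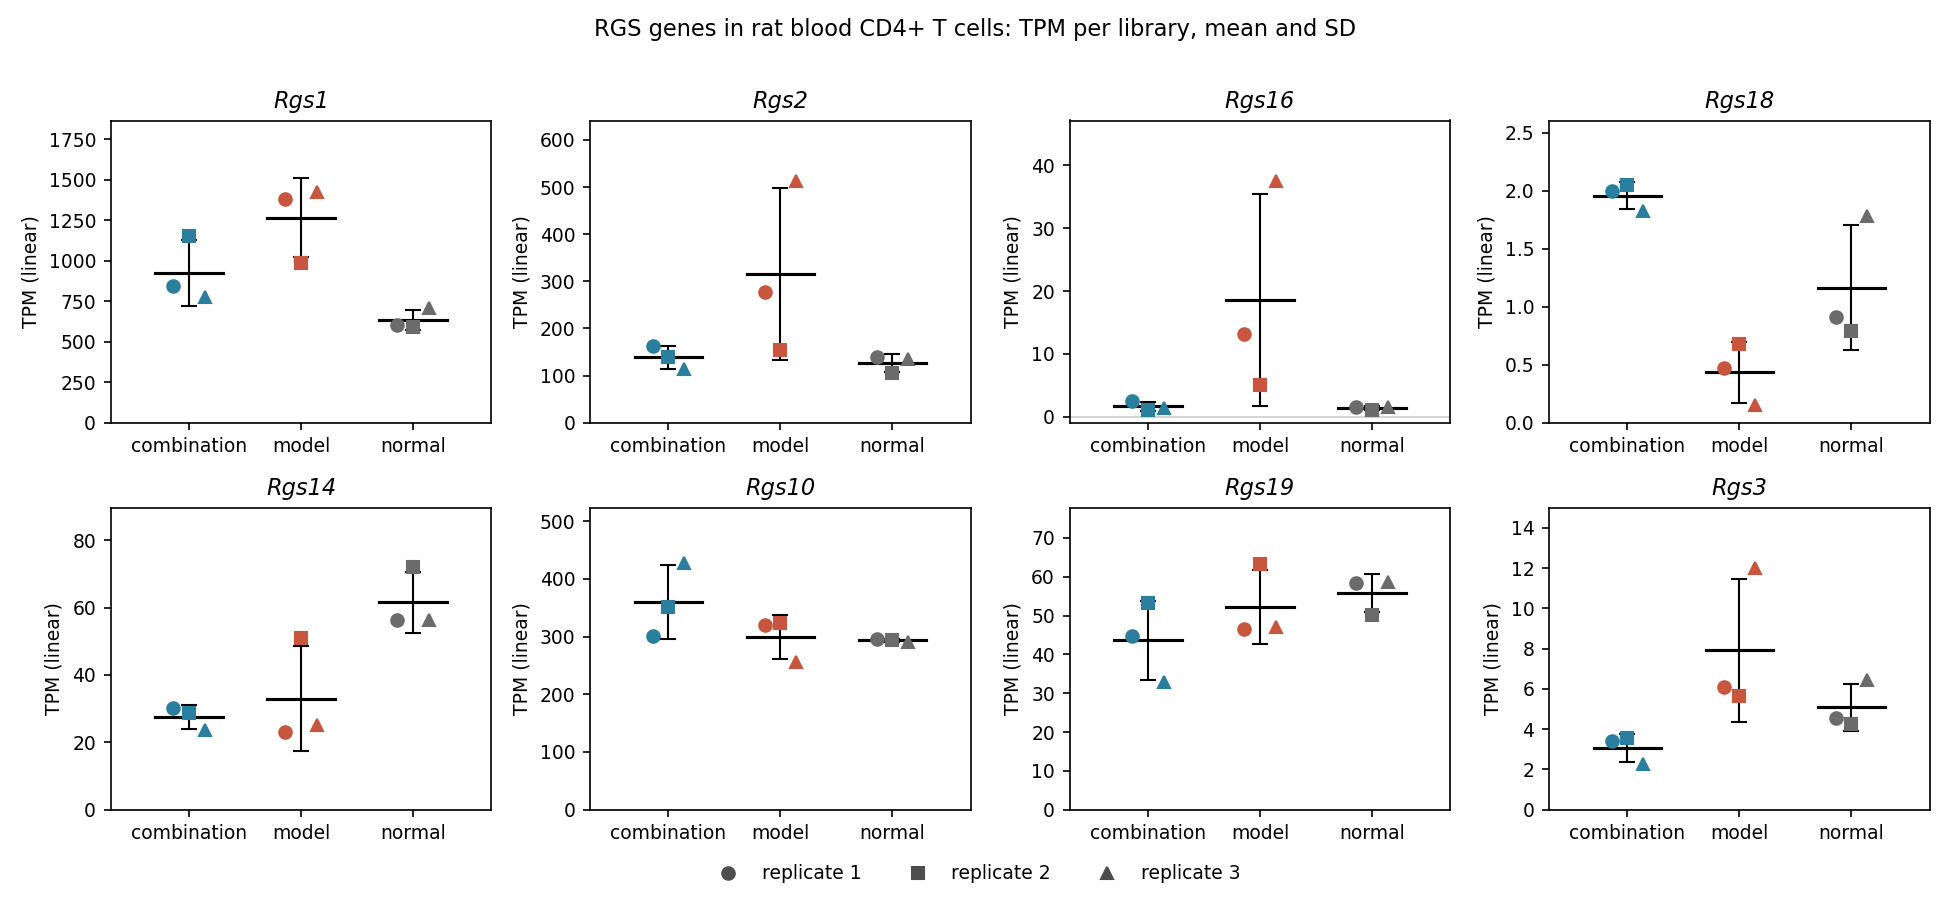
TPM of each RGS gene (linear axes, 1 panel per gene) in the 3 libraries of the combination, model and normal groups; marker shapes give the replicate, horizontal bars the mean and vertical bars the SD (n = 3 libraries). Rgs1 and Rgs16 lie above the normal libraries in all 3 model libraries, and Rgs18 lies above the model libraries in all 3 combination libraries.

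The comparison of model with normal rats asked which of these genes differ in CD4+ T cells of CIA rats. Rgs1 and Rgs16 rose in model libraries. These were 2 of 8 members past the threshold of an adjusted p under 0.05, against 4.99% of all 14175 genes tested, and both rose, as did 2.84% of all genes, whereas 2.14% fell. All 8 members had the mean of at least 1 TPM that the test required, but Rgs18 reached it only through the combination libraries: its mean was 1.18 TPM over the 9 libraries and 0.798 TPM over the 6 others. For the 7 other members the median log2 fold change was 0.50. Groups did not overlap for 5 members, against 33.2% of all genes. Of these, 3 were higher (Rgs1, Rgs2 and Rgs16), as were 18.7% of all genes, and 2 lower (Rgs14 and Rgs18), as were 14.4%. The median over all 8 was 0.26, beside -0.01 for all genes tested. In these bulk libraries, fewer cells of a type and less RNA per cell cannot be told apart.

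Rgs1 is induced on lymphocyte activation and limits the response of lymphocytes to chemokines. It had 843, 1155 and 773 TPM in combination libraries, 1383, 986 and 1425 TPM in model libraries and 605, 590.4 and 707 TPM in normal libraries. All 3 model libraries exceeded every normal library, and the combination libraries lay above the normal ones and overlapped the model ones. The log2 fold change of model over normal was 0.98 ± 0.192 (SE), with an adjusted p of 0.0283 by limma. Of combination over model it was -0.46 (95% interval -0.89 to -0.02, adjusted p = 0.170 by limma), and of combination over normal 0.52 (0.09 to 0.96, adjusted p = 0.128). Without model replicate 2 the rise was 1.15 (adjusted p = 0.00665 by limma). The rise lost its call without any 1 of model replicates 1 or 3 or of normal replicates 1, 2 or 3, with adjusted p-values by limma of 0.0803, 0.0832, 0.0898, 0.110 and 0.0785 in that order. The change stayed at 0.88 to 1.15 over all 9 omissions of a library. The call was also lost with no filter, with a fit of only the 2 groups compared and with reference transcripts only.

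Rgs16, which acts on Gi and Gq and is known for limiting T cell migration to chemokines, had the largest fitted change of the 8 genes. It had 2.49, 0.988 and 1.45 TPM in combination libraries, 13.1, 4.98 and 37.5 TPM in model libraries and 1.60, 1.06 and 1.48 TPM in normal libraries. All model libraries lay above all others, but they differed among themselves by more than any other member's did, with model replicate 2 the lowest and model replicate 3 the highest. The log2 fold change was 2.65 ± 0.549 (SE) for model over normal (adjusted p = 0.0316 by limma). For combination over model it was -2.53 ± 0.549 (adjusted p = 0.0415 by limma), so Rgs16 fell in combination libraries. These comparisons share the model libraries and are not independent. For combination over normal it was 0.12, with a 95% interval of -1.11 to 1.35 (adjusted p = 0.915 by limma).

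Without model replicate 2 the Rgs16 values were 3.30 for model over normal (adjusted p = 0.00374 by limma) and -3.18 for combination over model (adjusted p = 0.0110). The rise over normal lost its call without normal replicates 1, 2 or 3, model replicates 1 or 3, or combination replicate 2, with adjusted p-values by limma of 0.0892, 0.113, 0.0919, 0.0791, 0.0544 and 0.0544. The fall against model lost its call in each of the 8 other single omissions, where adjusted p-values by limma ran from 0.0585 (without normal replicate 3) to 0.127 (without combination replicate 2). Without model replicate 3, which held the highest level, the values were 1.96 and -1.84. Both calls were also lost with no filter, with a fit of only the 2 groups compared and with reference transcripts only. Markers of other cell types moved in the same comparisons. Of the 5 erythroid genes tested, 3 rose in model over normal and 2 fell in combination over model. The 13 neutrophil genes summed to 5.54 to 8.88 TPM in combination, 1.01 to 9.11 TPM in model and 14.9 to 35.3 TPM in normal libraries. Of these, 1 was at 0 throughout the combination group, 3 throughout the model group and 2 throughout the normal group. Both neutrophil genes tested, S100a8 and S100a9, fell in model over normal (adjusted p = 0.0252 and 0.0465 by limma). The 12 cytotoxic and NK genes summed to 87.7 to 115 TPM in combination, 53.5 to 81.2 TPM in model and 109 to 170 TPM in normal libraries, with 1 at 0 throughout the model group. Of 8 tested, Klrk1 and Klrd1, NK receptor genes, fell in model over normal (adjusted p = 0.0130 and 0.0231 by limma). In combination over model 2 of the 8 rose, Klrk1 and Klrb1a, of which Klrb1a entered the test only through the combination libraries. The part of these cell types in the results for Rgs1 and Rgs16 was not tested. After haemoglobin, mitochondrial and ribosomal protein genes were omitted and TPM rescaled, Rgs1 stood at 0.90 (adjusted p = 0.0294 by limma) and Rgs16 at 2.79 (adjusted p = 0.0264) for model over normal.

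By root mean square difference of centred log2(TPM + 1) over the 9 libraries, the genes whose pattern was most like that of Rgs16 were Frmd4b (0.244), Skil (0.307) and Spsb1 (0.309). Frmd4b averaged 7.19 TPM in combination, 47.5 TPM in model and 5.45 TPM in normal libraries, and Skil, a repressor in TGF-beta signalling, 32.1, 176 and 21.2 TPM in the same order of groups. Spsb1 averaged 0.772, 11.4 and 1.10 TPM in that order. The genes most like Rgs1 were 3 unannotated loci at differences of 0.126 to 0.141, each averaging under 3 TPM in every group.

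Rgs2, which acts mainly on Gq and is best known for its role in vascular tone, is induced in activated T cells. It had 163, 139.6 and 113 TPM in combination libraries, 277, 154 and 514 TPM in model libraries and 139.6, 104 and 135 TPM in normal libraries. Every model library lay above every normal library, and the combination and normal libraries overlapped. With a log2 fold change of 1.16 ± 0.365 (SE) for model over normal it did not pass (adjusted p = 0.0904 by limma), nor did it at -1.03 for combination over model (adjusted p = 0.118). Without model replicate 2, the lowest of its group, it passed in both, at 1.58 (adjusted p = 0.00905 by limma) and -1.45 (adjusted p = 0.0252). Over the transcripts of Rgs2, an assembled form, MSTRG.5094.1, retained 2 introns of the reference form (781 bases) and held 29.2% to 35.2% of Rgs2 TPM. The reference form held 66.4% ± 1.38 of Rgs2 in combination, 70.2% ± 0.699 in model and 66.9% ± 1.54 in normal libraries (SD, n = 3 each). The model libraries did not overlap either other group in this share. The exact permutation test gave p = 0.1 for both, the smallest that 3 against 3 can give, and 0.3 after adjustment over 15 such tests. Rgs1 also had an assembled form, of another kind: it skips an exon of 81 bases, and it held 10.1% to 13.1% of Rgs1 in all 9 libraries.

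Rgs14 carries an RGS domain and a GoLoco motif that also binds inactive Gi alpha. It had 30.2, 28.7 and 23.6 TPM in combination libraries, 23.0, 50.9 and 25.0 TPM in model libraries and 56.3, 72.0 and 56.4 TPM in normal libraries. All combination and model libraries lay below all normal libraries, and the combination and model libraries overlapped. No comparison passed: the log2 fold change was -0.96 ± 0.278 (SE) for model over normal (adjusted p = 0.0731 by limma) and -1.13 ± 0.278 for combination over normal (adjusted p = 0.0517). Model replicate 2 differed from its group here too. An assembled transcript, MSTRG.7285.3, which retains an intron of 298 bases, held 33.3 of its 50.9 TPM (65.3%), and 10.1 of the 23.6 TPM of combination replicate 3 (42.9%), against 5.13% to 12.8% of Rgs14 in the 7 other libraries. All 3 forms that retain this intron together held 86.8% of Rgs14 in combination replicate 3 and 86.9% in model replicate 2, against 39.8% to 62.1% in the others, and the reference form held 13.2% and 13.1% in those libraries. This transcript was singled out after its values were seen. The rest of Rgs14 came to 27.9, 26.9 and 13.5 TPM in combination, 20.8, 17.7 and 21.9 TPM in model and 53.4, 62.8 and 53.1 TPM in normal libraries, without overlap between normal and the other groups. With model replicate 2 omitted, all of Rgs14 passed for model over normal at -1.32 (adjusted p = 0.00429 by limma) and for combination over normal at -1.13 (adjusted p = 0.00837).

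**Figure D2:**
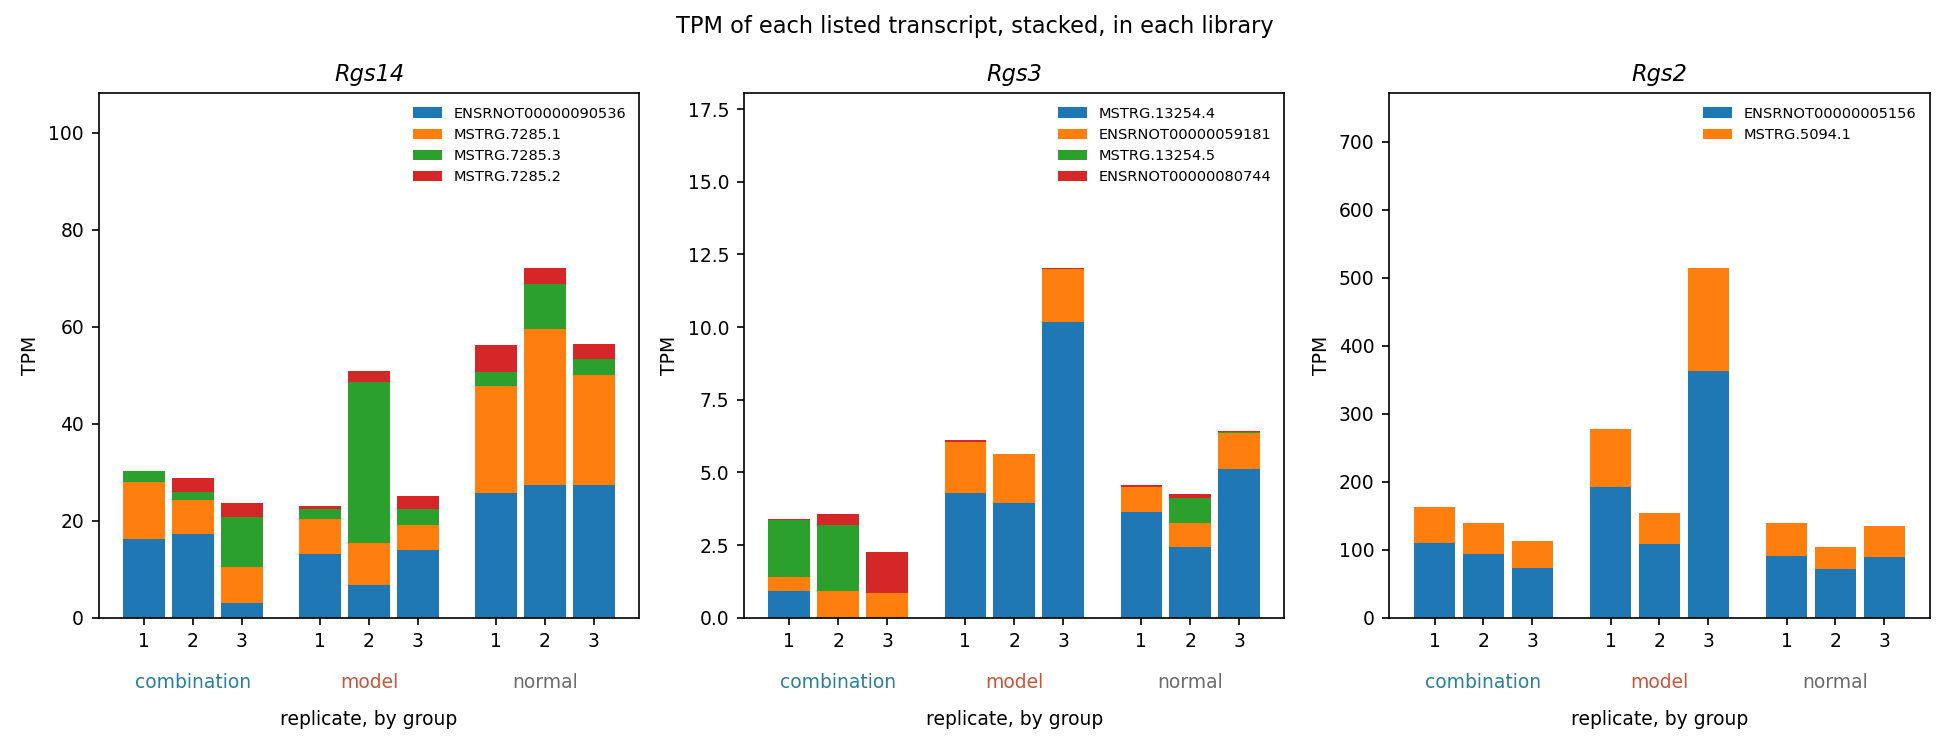
TPM of each listed transcript of Rgs14, Rgs3 and Rgs2, stacked per library (bars start at 0, colours are transcripts, libraries are grouped as combination, model and normal). In Rgs14, MSTRG.7285.3 takes up most of model replicate 2 and 42.9% of combination replicate 3, and in Rgs3, MSTRG.13254.4 is the main form in model and normal libraries and is absent from combination replicates 2 and 3.

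The comparison of combination with model asked which genes differed in CIA rats given the compounds over 4 weeks. The combination libraries also differed in the style of their file names. Effects of the compounds and of any separate processing therefore cannot be told apart, here or against normal. Rgs16 fell in combination libraries, 1 of the 7 members whose entry into the test did not depend on 1 group, against 4.49% of all genes tested. Rgs18 also passed, as higher, but it entered the test only through the combination libraries, so its call gives no support to a count of members. By direction, 2.41% of all genes rose and 2.07% fell. Groups did not overlap for 3 members, against 26.9% of all genes: Rgs18 was higher, as were 13.9% of all genes, and Rgs3 and Rgs16 lower, as were 13%. The median log2 fold change was -0.36 over all 8 members and -0.46 without Rgs18, beside 0.03 for all genes tested. Of combination over normal, 0 of 8 members passed by limma, against 4.6% of all genes (2.62% higher and 1.98% lower), and 2 (Rgs1 and Rgs14) had an unadjusted p under 0.05. There, groups did not overlap for 5 members, against 35.8% of all genes. Rgs1, Rgs10 and Rgs18 were higher, as were 17.8% of all genes, and Rgs3 and Rgs14 lower, as were 17.9%. Without model replicate 2 the members past the threshold numbered 4 of model over normal (19.8% of all genes), 4 of combination over model (9.21%) and 1 of combination over normal (11.2%).

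**Figure D3:**
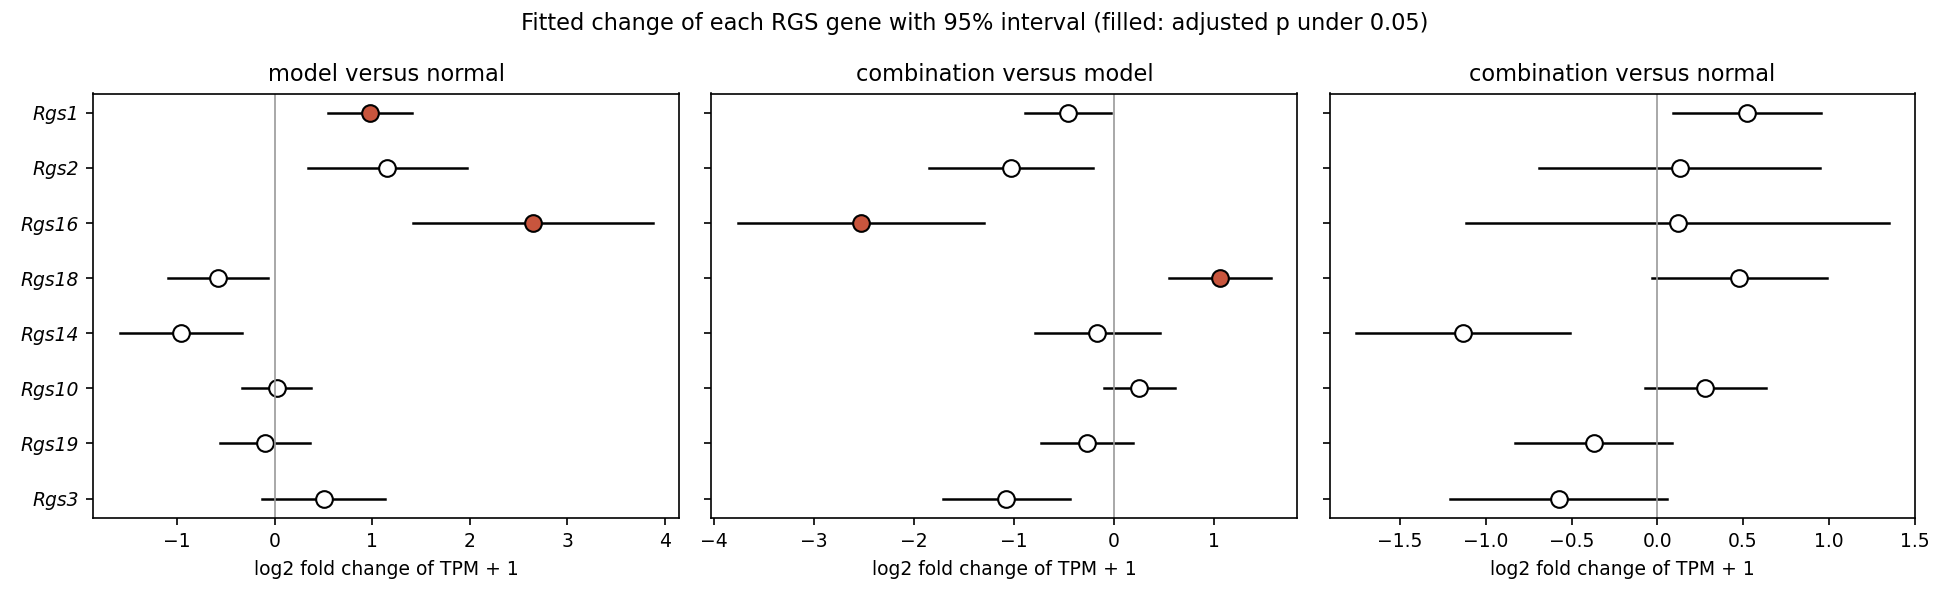
Fitted log2 fold change of TPM + 1 for each RGS gene (points) with its 95% interval (lines) in the 3 comparisons, each panel with its own horizontal scale; filled points have an adjusted p under 0.05. Rgs1 and Rgs16 are filled for model over normal, Rgs16 and Rgs18 for combination over model, and 0 genes for combination over normal.

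Rgs18, known from megakaryocytes and platelets, where it restrains signalling by receptors for platelet agonists, was the only member at under 1 TPM in all libraries of a group. It had 2.00, 2.05 and 1.82 TPM in combination libraries, 0.473, 0.676 and 0.156 TPM in model libraries and 0.914, 0.792 and 1.78 TPM in normal libraries. The combination libraries lay above all others and were close to each other, and the model libraries lay below all others. The log2 fold change of combination over model was 1.06 ± 0.228 (SE), with an adjusted p of 0.0410 by limma. This call depends on the filter, through which Rgs18 entered by its combination level. With no filter the adjusted p by limma was 0.0702. That loss was not particular to Rgs18, since 0 of the 8 members passed in any comparison with no filter. With a minimum mean of 5 TPM Rgs18 was not tested. The log2 fold change of model over normal was -0.58 (adjusted p = 0.142 by limma) and of combination over normal 0.48 (adjusted p = 0.218), which did not pass. At this level the mean read coverage per base was 8.34 to 9.78 in combination, 0.847 to 3.18 in model and 3.97 to 10.0 in normal libraries. The call remained without model replicate 2 (1.18, adjusted p = 0.0290 by limma) or normal replicate 3 (1.06, adjusted p = 0.0462). It was lost in each of the 7 other single omissions, with adjusted p-values by limma from 0.0561 (without normal replicate 2) to 0.119 (without combination replicate 2).

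Summed marker genes of platelets and of monocytes were higher in combination libraries, as was Rgs18. The 18 platelet genes summed to 294 to 385 TPM in combination, 206 to 258 TPM in model and 192 to 226 TPM in normal libraries, and 0 of them were at 0 throughout a group. Rap1b, a small GTPase that many cell types express, supplied 128 to 159 TPM of this in combination, 145 to 204 TPM in model and 144 to 160.4 TPM in normal libraries. The 17 other platelet genes, a sum taken after the values were seen, came to 158 to 226 TPM in combination, 53.7 to 76.9 TPM in model and 40.6 to 67.1 TPM in normal libraries. The mean of this sum was 62.5 TPM in model and 52.2 TPM in normal libraries, and these groups overlapped. Rgs18 was lower in every model library than in any normal library, a change that did not pass (adjusted p = 0.142 by limma). Of the 11 platelet genes tested, 7 rose in combination over model, 1 of them (Gp1ba) in the test only through the combination libraries. Among the 7 were Clec1b (13.7 ± 3.17 TPM against 1.95 ± 0.444 TPM in model, adjusted p = 0.0183 by limma) and Itga2b, the platelet integrin alpha IIb (13.3 ± 3.24 TPM against 4.86 ± 0.343 TPM in model, adjusted p = 0.0259). The 13 monocyte and macrophage genes summed to 287 to 562 TPM in combination, 59.8 to 169 TPM in model and 24.0 to 143 TPM in normal libraries, and 3 of 10 tested rose in combination over model, 1 of them (Clec4a3) in the test only through the combination libraries. Of the 13, Cd163 was at 0 throughout the model and normal libraries. The part of platelets and monocytes in the rise of Rgs18 was not tested. The genes most like Rgs18 in pattern were Tstd3 (root mean square difference 0.159 over the 9 libraries), 1 of several loci named Exoc2 (0.163) and an unannotated locus (0.164). Tstd3 averaged 4.11 TPM in combination, 1.37 TPM in model and 2.84 TPM in normal libraries.

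**Figure D4:**
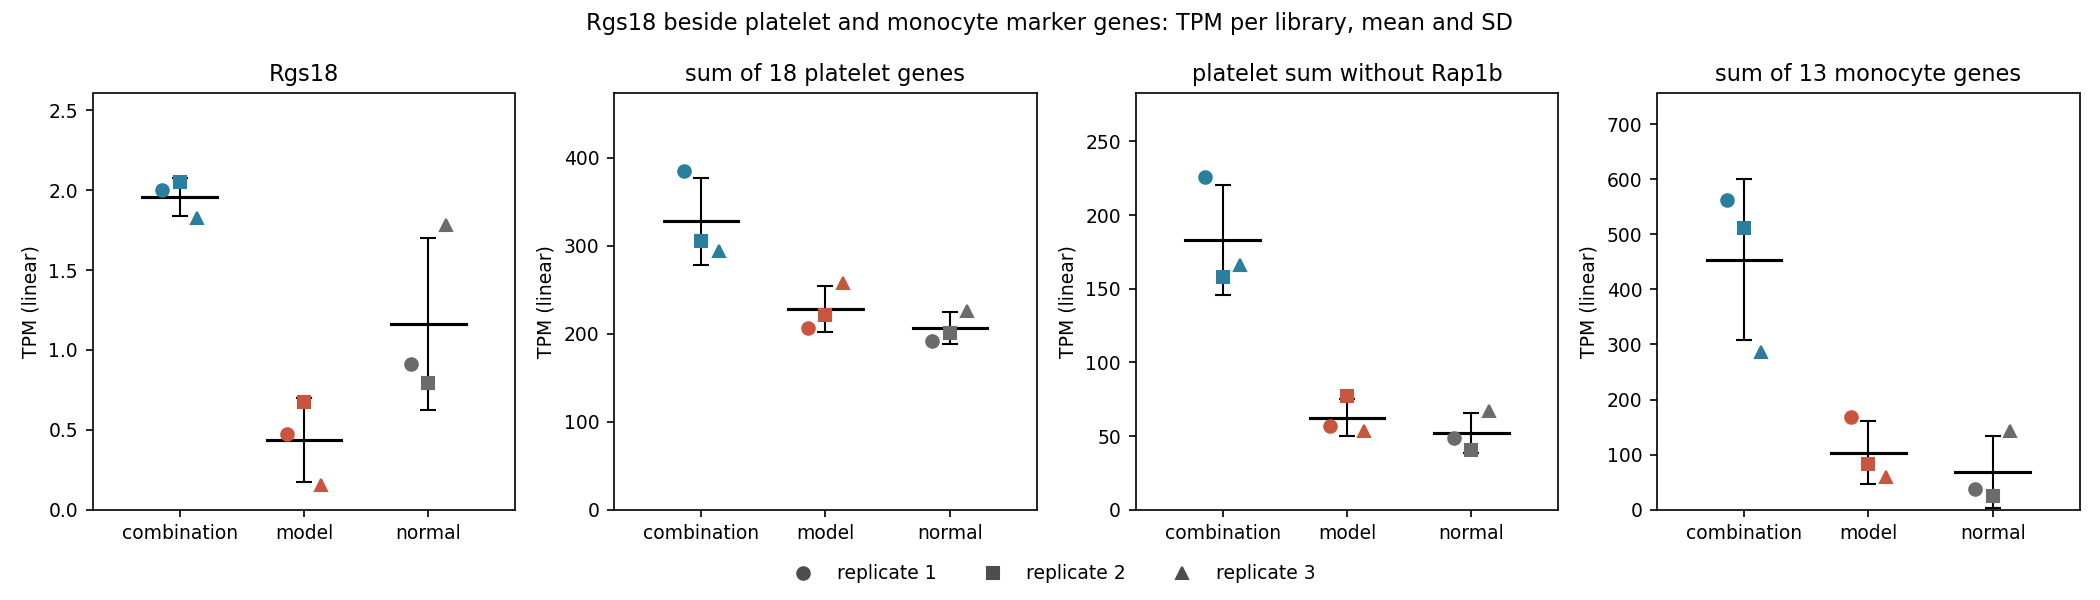
TPM (linear axes) of Rgs18 and summed TPM of 18 platelet genes, of 17 of them without Rap1b, and of 13 monocyte and macrophage genes in each library; marker shapes give the replicate, horizontal bars the mean and vertical bars the SD (n = 3 libraries). All 4 measures are higher in every combination library than in any model or normal library.

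Rgs3 acts on Gi and Gq, and its longer forms have further domains before the RGS domain. It had 3.40, 3.57 and 2.27 TPM in combination libraries, 6.10, 5.65 and 12.03 TPM in model libraries and 4.57, 4.25 and 6.43 TPM in normal libraries. All combination libraries lay below all model and normal libraries, which overlapped each other. The log2 fold change of combination over model was -1.08 ± 0.282 (SE) and did not pass (adjusted p = 0.0588 by limma), and of combination over normal it was -0.57 (adjusted p = 0.231). Without model replicate 2 the first passed (-1.25, adjusted p = 0.0390 by limma). With reference transcripts only, the values were -0.30 (adjusted p = 0.557 by limma) and 0.14 (adjusted p = 0.816). The makeup of Rgs3 differed as well. The assembled transcript MSTRG.13254.4 held 8.91% ± 15.4 of Rgs3 in combination, 74.9% ± 8.47 in model and 72.2% ± 12.7 in normal libraries (SD, n = 3 each), and was at 0 in combination replicates 2 and 3. Other forms, MSTRG.13254.5 and ENSRNOT00000080744, together held most of Rgs3 in each combination library. The exact permutation p was 0.1 against either group, the smallest possible, and 0.3 after adjustment over 15 tests. At 11.2 to 65.3 reads of mean coverage per base, summed over transcripts, the division among overlapping forms is an estimate of the authors' transcript model. Transcripts with the shared last exons summed to 2.91, 2.63 and 1.41 TPM in combination, 4.33, 3.95 and 10.2 TPM in model and 3.72, 3.42 and 5.19 TPM in normal libraries, again without overlap between combination and either other group. An unannotated unit on the other strand overlaps Rgs3 (mean 0.975 TPM), and without strand its reads cannot be told apart from those of Rgs3.

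Rgs10 and Rgs19 differed least. Rgs10, a short RGS protein abundant in immune cells and microglia, had 301, 352 and 428 TPM in combination, 320.0, 324 and 256 TPM in model and 297, 293 and 291 TPM in normal libraries. The combination libraries lay just above the normal ones, which were nearly equal. The 95% interval of its log2 fold change was -0.33 to 0.37 for model over normal, -0.10 to 0.61 for combination over model and -0.07 to 0.63 for combination over normal. Rgs19 had 44.8, 53.2 and 32.8 TPM in combination, 46.6, 63.3 and 47.0 TPM in model and 58.4, 50.1 and 58.7 TPM in normal libraries, and every pair of groups overlapped. Its intervals ran from -0.56 to 0.36 for model over normal, -0.73 to 0.19 for combination over model and -0.83 to 0.09 for combination over normal. Changes of up to about these sizes are thus not shown to be absent. Rgs19 was divided among 9 transcripts and overlaps Tcea2 on the other strand (mean 6.54 TPM), whose reads cannot be told apart without strand.

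Genes that act with RGS proteins were taken from lists of receptors, G protein subunits and effectors. The counts below stand beside the share of all genes past the threshold. It was 4.99% in model over normal, 4.49% in combination over model and 4.6% in combination over normal. Of 9 G alpha subunits tested, a class that includes the Gi and Gq targets of RGS proteins, 1 rose in model over normal, Gna13. It had 227, 209.9 and 136 TPM in combination, 253, 264 and 539.6 TPM in model and 123, 102 and 122 TPM in normal libraries. Its log2 fold change of model over normal was 1.52 (adjusted p = 0.0283 by limma), and it was higher in all 3 model libraries. The median of the 9 was -0.03, beside -0.01 for all genes tested. In combination over normal 1 of the 9 passed, Gnai1, a Gi alpha subunit. It fell to 1.52 ± 0.266 TPM in combination, against 3.10 ± 0.141 TPM in normal libraries (adjusted p = 0.0469 by limma). Of 13 G beta and gamma subunits, 0 passed in model over normal by limma, with 4 at an unadjusted p under 0.05, and 1 rose in combination over model: Gng11 averaged 2.24 ± 0.310 TPM in combination, against 0.475 ± 0.0868 TPM in model (adjusted p = 0.0242 by limma), and entered the test only through the combination libraries.

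Gi-coupled receptors are those whose signal most RGS proteins shorten. Of 13 tested, 1 rose in model over normal and 2 fell in combination over model, with medians of 0.54 and -0.75 beside -0.01 and 0.03 for all genes. Cxcr5, the receptor that guides follicular helper T cells, averaged 4.80 ± 1.03 TPM in combination, 14.8 ± 5.25 TPM in model and 4.91 ± 0.580 TPM in normal libraries. It rose in model over normal (adjusted p = 0.0272 by limma) and fell in combination over model (adjusted p = 0.0306). Ccr4, a receptor of Th2 and regulatory T cells, fell to 13.7 ± 1.81 TPM in combination, against 33.8 ± 4.64 TPM in model (adjusted p = 0.0259 by limma). These comparisons share the model libraries.

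Of 7 Gs-coupled receptors, which raise cAMP, 1 rose and 1 fell in model over normal, and both are receptors for prostaglandin E: Ptger2 averaged 78.2 ± 15.5 TPM in model against 22.9 ± 4.45 TPM in normal libraries (adjusted p = 0.0228 by limma), and Ptger4 8.85 ± 2.87 TPM in model against 19.0 ± 2.02 TPM in normal libraries (adjusted p = 0.0434). Of 8 receptors that couple to Gq or G12, 2 rose (F2r and S1pr2) and 1 fell (Lpar6) in model over normal, S1pr2 having entered the test only through the model libraries. F2r, the thrombin receptor, had 4.24, 3.39 and 2.04 TPM in combination, 27.1, 12.1 and 60.5 TPM in model and 0.666, 0.971 and 2.39 TPM in normal libraries. The order of the model libraries was that seen for Rgs16, for Rgs2 and on the first principal component, so it is not particular to F2r. F2r rose in model over normal (log2 3.66, adjusted p = 0.0132 by limma) and fell in combination over model (log2 -2.78, adjusted p = 0.0296). Lpar6, a receptor for lysophosphatidic acid, averaged 15.7 ± 2.90 TPM in combination, 6.67 ± 0.678 TPM in model and 15.0 ± 2.48 TPM in normal libraries. It fell in model over normal (adjusted p = 0.0240 by limma) and rose in combination over model (adjusted p = 0.0261).

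Downstream of the G proteins, 0 of 13 effectors passed in model over normal by limma (2 at an unadjusted p under 0.05). Adcy3, an adenylyl cyclase, fell to 4.71 ± 0.750 TPM in combination, against 10.5 ± 2.60 TPM in model (adjusted p = 0.0336 by limma) and 10.3 ± 0.852 TPM in normal libraries (adjusted p = 0.0352). Plcb4 rose to 1.81 ± 0.528 TPM in combination, against 0.470 ± 0.178 TPM in normal libraries (adjusted p = 0.0414 by limma). It entered the test only through the combination libraries. Of 13 cAMP-dependent kinase subunits and phosphodiesterases, 1 rose in model over normal, Prkar1a, a regulatory subunit of protein kinase A, at 675 ± 307 TPM in model against 233 ± 5.85 TPM in normal libraries (adjusted p = 0.0328 by limma). Another, Pde4b, which breaks down cAMP, rose in combination over model, at 32.1 ± 6.07 TPM in combination against 18.4 ± 2.15 TPM in model (adjusted p = 0.0472 by limma). Prkar2a, a further regulatory subunit, fell in combination over normal, at 2.35 ± 0.496 TPM in combination against 6.01 ± 1.47 TPM in normal libraries (adjusted p = 0.0460 by limma). Of the 6 receptor kinases and arrestins, Grk4 fell in combination over model, at 6.43 ± 0.251 TPM in combination against 10.9 ± 1.33 TPM in model (adjusted p = 0.0448 by limma). Of 4 more distant genes with an RGS-type domain, 2 rose in combination over model: Axin2, a scaffold of Wnt signalling, and Snx14, a sorting nexin (adjusted p = 0.0478 and 0.0486 by limma). Of 4 other modulators of G alpha subunits, 0 passed in any comparison by limma, with 0, 0 and 1 at an unadjusted p under 0.05 in combination over model, combination over normal and model over normal.

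**Figure D5:**
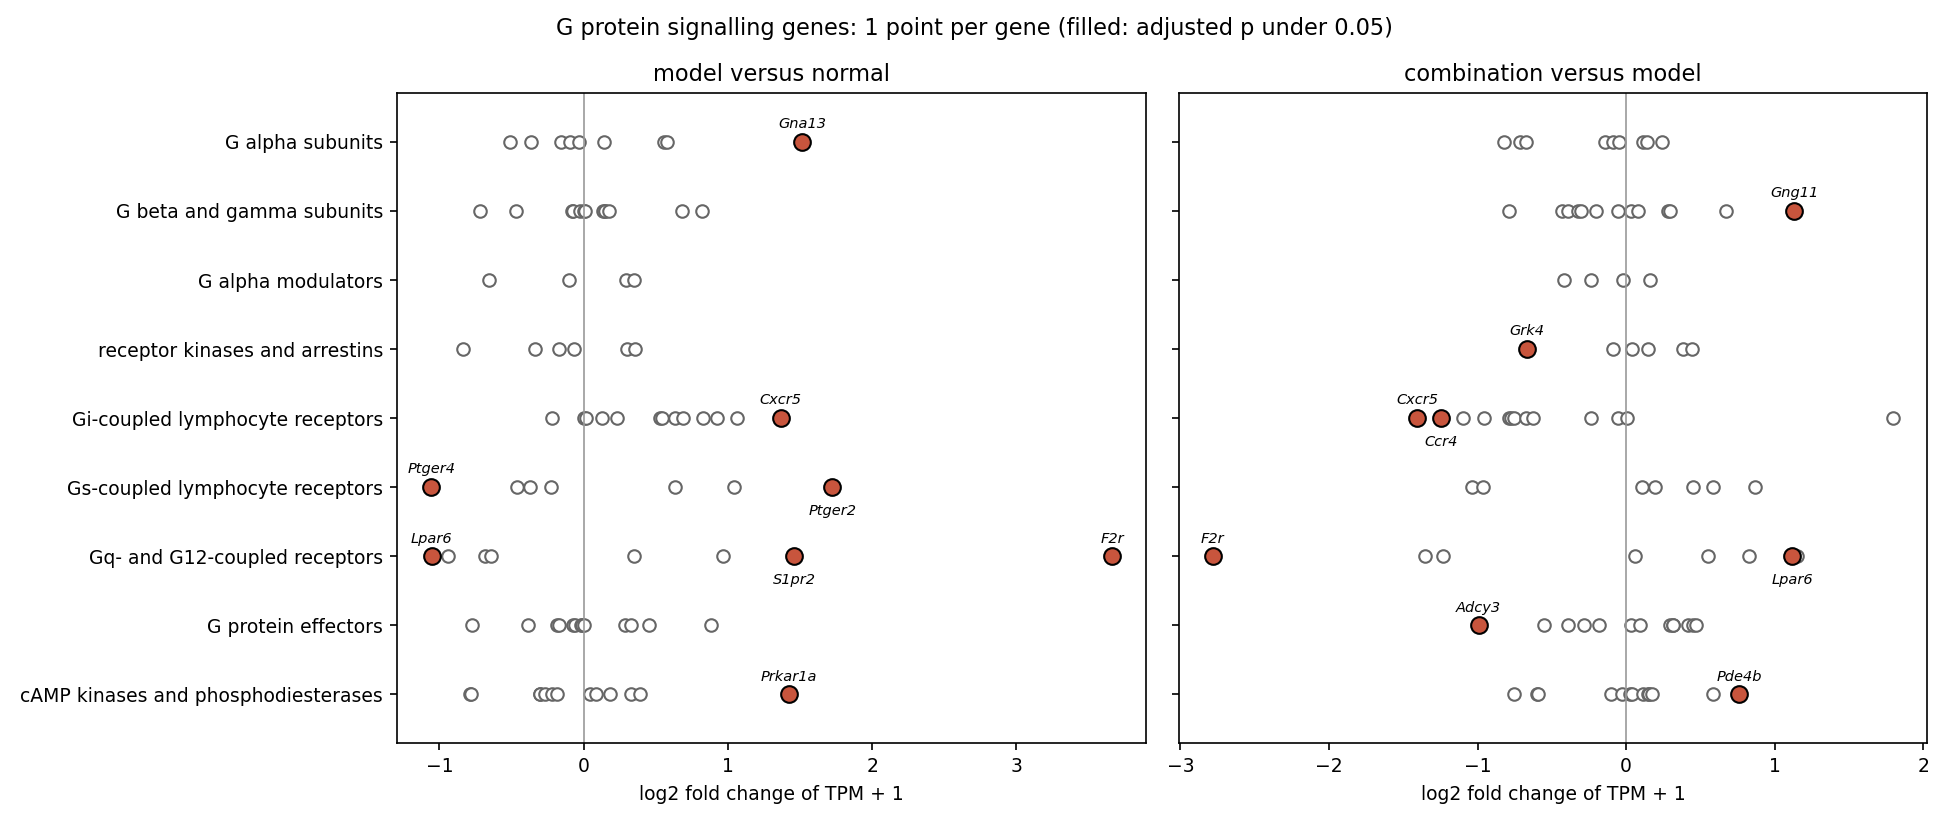
Log2 fold change of TPM + 1 for genes of 9 lists around G protein signalling (1 point per gene) for model over normal and combination over model, each panel with its own horizontal scale; filled, named points have an adjusted p under 0.05. Most genes lie within 1 log2 unit of 0, and F2r has the largest change in both panels, higher in model over normal and lower in combination over model.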

How the data were processed

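Total RNA of CD4+ T cells from rat blood was extracted with Trizol and made into libraries with an NEBNext Ultra RNA kit, per the labels' protocols. The submitters' processing notes name bcl2fastq, HISAT2 and the rn6 build, and the authors ran StringTie 1.3.3b on a merged transcript set with no strand option, per the file headers. The deposited tables give coverage, FPKM and TPM per transcript as other text attributes; since these are not counts, values carry no counting interval.

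TPM was summed per gene name within a locus, and in loci with more than 1 name, assembled transcripts joined the name whose exons they overlapped most. The 14175 genes that averaged 1 TPM or more (of 30032 above 0) were tested on log2(TPM + 1), a scale that understates the change of low genes, with limma 3.58.1 in R 4.3.3 (trend, 6 residual and 3.53 prior degrees of freedom, all 3 groups in 1 fit). Benjamini-Hochberg adjustment ran over all of them, and the threshold was 0.05. Every adjusted p of a gene came from limma. Transcript shares were compared by exact two-sided permutation tests. Tables were made in Python 3.11.15 with pandas 2.3.3, and the procedure was tested on simulated data.

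The members, lists and motifs were chosen with earlier results of these data known. Named genes were the 8 members, up to 4 genes of a list past the threshold or else those of smallest p, transcripts with at least 10% of a member, and the 3 genes nearest in pattern. Alternatives were other pseudocounts, filters, units, scalings, gene units, weights and fits, a replicate block, and each library left out in turn.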

Additional observations from a re-analysis of the deposited data

How the results depend on the processing

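Each setting gives the members past the threshold, and in brackets all genes, for model over normal, combination over model and combination over normal, beside 2, 2 and 0 (707, 636 and 652) in the fit reported. FPKM gave 3, 3 and 1 (1320, 1451, 1357), median-ratio scaling 3, 3 and 1 (1450, 1566, 1504), TPM rescaled without genes of haemoglobin, mitochondria and ribosomal proteins 2, 3 and 1 (1223, 1430, 1326), then array weights 4, 4 and 2 (2997, 1802, 3953), a pseudocount of 0.1 2, 1 and 0 (615, 525, 516), a pseudocount of 5 1, 1 and 1 (715, 557, 694), no filter 0, 0 and 0 (86, 196, 206), a minimum mean of 5 TPM 2, 1 and 0 (559, 400, 389; Rgs18 was not tested), only the 2 groups compared 0, 0 and 1 (113, 24, 1391), reference transcripts only 0, 0 and 0 (187, 142, 81), and locus sums 2, 2 and 1 (705, 713, 665). Leaving out 1 library at a time gave 0 to 4, 0 to 4 and 0 to 1 members (34 to 2813, 31 to 1305 and 21 to 1583 genes). The share of higher calls among all genes called was 57.0%, 53.8% and 57.1% in the fit reported, and 48.2%, 65.7% and 62.2% with haemoglobin, mitochondrial and ribosomal protein genes omitted, which moved the median of all genes for combination over model to 0.13.

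With the replicate number as a block, 1, 0 and 0 members passed (163, 9 and 82 genes). The labels state no pairing of libraries by number. Residuals of libraries with the same number correlated at -0.14 to 0.056, and the closest residuals were those of the same number for 1 of 9 libraries. With 3 libraries per group, these values cannot exclude a pairing or a shared batch.

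Rgs1 passed for model over normal in 13 of 22 alternatives and Rgs16 in 12 of 22. For combination over model Rgs16 passed in 9 of 22 and Rgs18 in 9 of 21. Each kept its sign in all of them. Of the values not past the threshold in the fit reported, Rgs14 passed in 8 of 22 for combination over normal and 4 of 22 for model over normal, Rgs3 in 5 of 22 for combination over model, Rgs2 in 2 of 22 for model over normal and 2 of 22 for combination over model, and Rgs1 in 1 of 22 for combination over normal. Values that changed sign were those of comparisons not past the threshold: Rgs10 for model over normal with FPKM (-0.047), with haemoglobin, mitochondrial and ribosomal protein genes omitted (-0.056) and over single omissions (-0.038 to 0.13), Rgs14 for combination over model with array weights (0.10) and over single omissions (-0.37 to 0.18), Rgs16 for combination over normal with array weights (-0.059) and over single omissions (-0.10 to 0.30), and, with reference transcripts only, Rgs19 for model over normal (0.11) and Rgs3 for combination over normal (0.14), where its value for combination over model was -0.30 (adjusted p = 0.557 by limma). The cause was not tested. Without counts, the depth of the tables limits Rgs18 most, at a mean coverage per base of 0.847 to 3.18 in model libraries.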
